A study of Mus musculus with 6 samples.

Results

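The genes described here build and control the mitotic spindle. They are 42 genes for mitotic kinesins, the kinetochore, the spindle checkpoint, the kinases of mitosis, spindle assembly, cytokinesis and the exit from mitosis, chosen by name. All 42 were found among the 21307 rows of the deposited table, 1 row a gene, and all 42 were high enough in both conditions to be compared. The row of Ccnf also carries the name of a microRNA.

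In dividing cells, kinesin motors separate the spindle poles and move chromosomes, and the kinetochore fastens each chromosome to microtubules through the Ndc80 complex. Kinetochores without microtubules keep the spindle checkpoint on, which holds back CDC20, the activator of the anaphase-promoting complex (APC/C). Once the checkpoint is satisfied, APC/C marks securin and cyclin B for destruction, separase cuts cohesin, and the central spindle places the cleavage furrow. Large cycling pre-B cells of the bone marrow, which divide in response to interleukin 7, use this machinery heavily, and many of its genes are transcribed mainly in G2 and mitosis.

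The cells were bone marrow B cells of E-mu-myc;Prmt5F/FCreER transgenic mice on a C57BL/6 x 129S1/SvlmJ background, taken before tumours, at 6 to 8 weeks of age, and grown in interleukin 7 (5 ng/µl). Both groups carry the Myc transgene, which an immunoglobulin enhancer drives in B cells, the loxP-flanked (F) Prmt5 alleles and the tamoxifen-dependent Cre, and the promoter that drives that Cre is not named in the labels. In 3 libraries, titled PT, the cells had received 50 nM 4-hydroxytamoxifen (4-OHT) for 24 h, which activates Cre and deletes Prmt5. In the other 3, titled WT although the genotype is the same, they had received ethanol, and both were then washed and kept for 5 days. No library of cells without Cre but with 4-OHT is among the 6, so an effect of 4-OHT or of Cre activity cannot be told apart from loss of Prmt5. Whether the 3 libraries of a condition came from separate mice is not stated.

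The values are FPKM, read fragments normalised for transcript length and for the number mapped, which allow levels of different genes to be compared. The table gives 1 FPKM per gene and condition, so no difference here has a replicate error, a test or a p-value, and the depth is unknown. The ratio given below compares 4-OHT with ethanol on a log2 scale after 1 was added to each FPKM, negative values mean lower in 4-OHT, and folds come from it. It was computed for the 10856 rows with both values above 0 and a mean of at least 1 FPKM. Prmt5 itself stood at 41.6 FPKM in ethanol and 5.71 in 4-OHT (ratio -2.67), in the direction of its labels, and Myc was at 402 and 213 FPKM.

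The labelled cell type was present, together with others. All 20 B lineage markers were compared and all 20 were lower in 4-OHT (median ratio -0.84), against 55.1% of all compared rows. They were uneven, with ratios from -2.67 to -0.03. Their summed level was 3114.5 FPKM in ethanol and 1475 in 4-OHT, with Vpreb3 at 509 and 242 and Cd24a at 451 and 273. All 17 compared markers of monocytes and macrophages were higher in 4-OHT (median 1.15), summing to 5028 and 12959 FPKM, with Apoe at 2174 and 4314 and Spp1 at 1143 and 4667. All 17 compared neutrophil markers were higher (median 2.91; summed 725.5 and 4965 FPKM), among them Ngp and Lcn2, as were all 18 compared stromal and endothelial markers (median 3.16; summed 70.4 and 864 FPKM), led in level by Col1a1 and Sparc. Of 11 compared megakaryocyte and erythroid markers, 9 were higher, with the platelet chemokine genes Pf4 (156 and 585 FPKM) and Ppbp (42.8 and 149.8). The other 2 were lower, down to a ratio of -0.76, and 4 of the 15 listed were not compared. All 10 compared markers of mast cells, basophils and eosinophils were higher, with Prss34 at 34.2 and 107 FPKM and Prg2 at 24.2 and 95.9. Of all 10856 compared rows, 4875 were higher. The myeloid markers Lyz2 (3835 FPKM in ethanol) and Ctsd (1953) are listed at 0 in 4-OHT and were left out of these sums. The part of these other cell types in the results on mitotic genes was not tested, and in bulk RNA fewer cells of a type and less RNA per cell cannot be told apart.

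Mitotic genes are known to share short promoter elements, the cell cycle genes homology region (CHR, TTTGAA or TTCGAA) and the CCAAT box. For 4 of the 42 genes, promoters with both elements are shown. Whether these elements bear on the ratios was not tested. Each line gives the 250 bases before the RefSeq transcription start on GRCm38.p6, 5′ to 3′ on the strand of the gene, with CHR and CCAAT letters on either strand in capitals. They are the 4 members of highest mean FPKM with both elements before the start and no annotated gene over these bases. The Top2a bases are chr11:99024190-99024439 (minus strand), those of Mki67 chr7:135716380-135716629 (minus), those of Bub1b chr2:118597961-118598210 (plus) and those of Kif11 chr19:37376132-37376381 (plus). All 4 stretches are intergenic in the GENCODE M21 annotation.
Top2a: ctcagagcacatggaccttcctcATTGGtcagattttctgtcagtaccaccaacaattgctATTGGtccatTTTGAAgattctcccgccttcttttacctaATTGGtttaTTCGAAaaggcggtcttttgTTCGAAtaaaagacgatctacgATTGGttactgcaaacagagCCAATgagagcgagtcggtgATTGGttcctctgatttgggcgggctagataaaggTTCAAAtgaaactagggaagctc
Mki67: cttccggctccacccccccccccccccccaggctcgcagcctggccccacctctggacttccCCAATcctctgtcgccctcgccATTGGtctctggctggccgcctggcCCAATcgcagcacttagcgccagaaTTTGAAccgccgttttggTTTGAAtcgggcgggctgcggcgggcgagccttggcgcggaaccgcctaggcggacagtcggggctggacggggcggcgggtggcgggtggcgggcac
Bub1b: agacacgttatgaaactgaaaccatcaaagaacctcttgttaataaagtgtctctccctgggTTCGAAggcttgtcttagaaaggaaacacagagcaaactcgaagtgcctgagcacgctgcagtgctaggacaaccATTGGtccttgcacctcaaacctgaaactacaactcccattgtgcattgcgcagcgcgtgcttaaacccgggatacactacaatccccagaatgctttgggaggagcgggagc
Kif11: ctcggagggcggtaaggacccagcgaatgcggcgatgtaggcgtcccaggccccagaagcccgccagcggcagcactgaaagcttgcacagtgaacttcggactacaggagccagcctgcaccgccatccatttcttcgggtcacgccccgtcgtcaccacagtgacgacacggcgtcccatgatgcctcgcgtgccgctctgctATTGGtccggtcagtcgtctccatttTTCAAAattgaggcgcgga
The Top2a stretch holds 4 CHR and 6 CCAAT matches, the most of the 4, and Kif11 holds 1 of each close to the start, at positions -19 and -45 (first base of the match, with the start at 0). Bub1b has its CHR letters at -188, with another at 40 after the start.

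RefSeq promoters were found for 37 of the 42 genes. Aurkb, Dlgap5, Kif20a, Spc24 and Tpx2 were not matched. In the window of 300 bases from 250 before to 50 after the start, CHR letters stood in 30 of the 37 promoters (81.1%), against 19.5% of the 27025 genes with a promoter and 13.9% of the 7887 among them with a compared row. CCAAT stood in 27 of 37 (73.0%), against 38.02% of all promoters and 39.1% of those with a compared row, and both elements in 25 of 37 (67.6%), against 7.73% and 5.88%. The E-box CACGTG, which MYC is known to bind, was found in 3 of 37 (8.11%), in 7.24% of all promoters, in 10.8% of those with a compared row and in 13.9% of those of the S phase genes used below. The CHR letters gathered at the start: 27 of 37 members had them within 50 bases of it on either side (73.0%), against 5.31% of all genes. In the list of S phase genes, 6 of 36 promoters held CHR letters (16.7%), and among 131 promoters of other mitotic genes 41 did (31.3%). The mean GC content of these windows was 58.9% for the members, above the 53.6% of all genes and below the 60.97% of genes with a compared row, the 60.0% of S phase genes and the 61.7% of other mitotic genes.

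**Figure D1:**
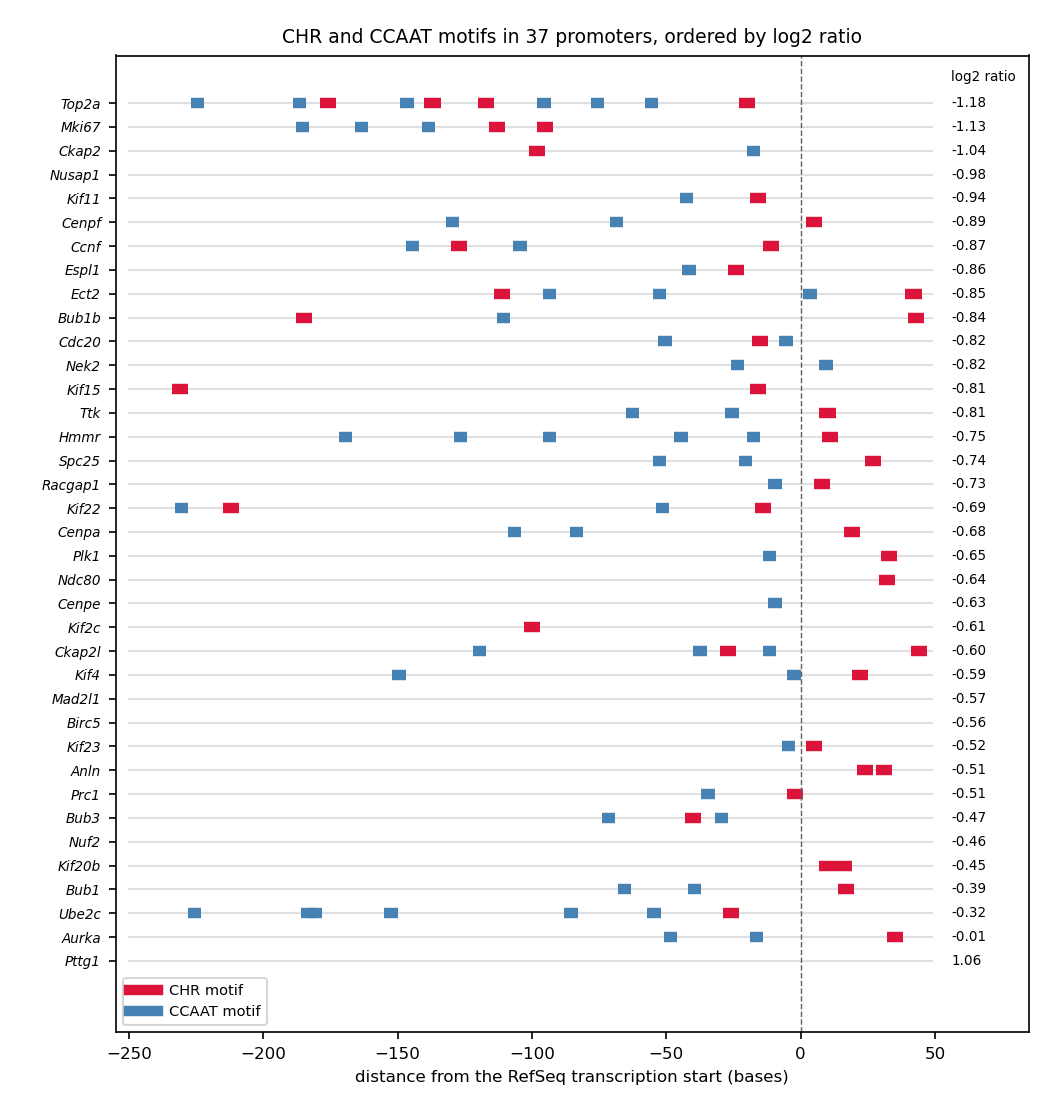
Positions of CHR letters (red) and CCAAT letters (blue), on either strand, in the promoters of 37 mitotic genes. The x axis is the distance in bases from the RefSeq start (dashed line), and genes are ordered from the lowest log2 ratio of 4-OHT over ethanol (top) to the highest, printed at the right. Red marks crowd around the start, in 27 of 37 promoters within 50 bases, and Pttg1, at the bottom, has neither mark.

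The 7 promoters without CHR letters were those of Cenpe, Nuf2, Mad2l1, Birc5, Nek2, Nusap1 and Pttg1. A match is only a description of letters, and their absence says nothing of binding. Among the 30 genes with CHR letters the ratios ran from -1.18 to -0.01, with a median of -0.71, and among the 7 without they ran from -0.98 to 1.06, with a median of -0.57. The ranges overlap, and Nusap1, with neither element, was at -0.98. Only 7 genes lacked the letters, in 1 window a gene, and whether the letters bear on the ratios was not tested.

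As a group the mitotic genes were lower in 4-OHT. Of the 42, 41 were lower, against 55.1% of all compared rows, and 28 were at least 1.5-fold lower, against 12.8%. Only 3 were at least 2-fold lower, Top2a, Mki67 and Ckap2, against 2.58% of all rows. In the authors' deposited table, whose log2 fold changes use no added 1, 6 members reached -1 or below (Cenpf, Tpx2 and Nusap1 besides these), against 4.44%. The median ratio was -0.68, and that of all rows -0.07. In ethanol the members ran from 6.70 to 131 FPKM with a median of 24.1, and in 4-OHT from 4.89 to 59.1 with a median of 16.1. Their summed level was 1542 FPKM in ethanol and 922 in 4-OHT.

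The ratios were more narrowly spread than those of all compared rows. From the lower to the upper quartile the members ran from -0.83 to -0.53, and all compared rows from -0.39 to 0.40. The S phase genes used below ran from -0.86 to -0.45, so a similar spread was not particular to the members. The ratios of 34 of the 42 genes lay between -1 and -0.4, limits set by hand. The share of all rows between these limits was not counted. Of all compared rows, the lowest 10% by ratio held 22 members and the lowest 20% held 35. The order of the genes by level was largely the same in both conditions (Spearman correlation 0.94 across 42 genes, which share both pooled values and are not independent). Level and ratio were weakly related across the members (Spearman correlation -0.19, as a description). Aurka, at a ratio of -0.01, and Pttg1, at 1.06, stood farthest outside the range from -1 to -0.4.

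**Figure D2:**
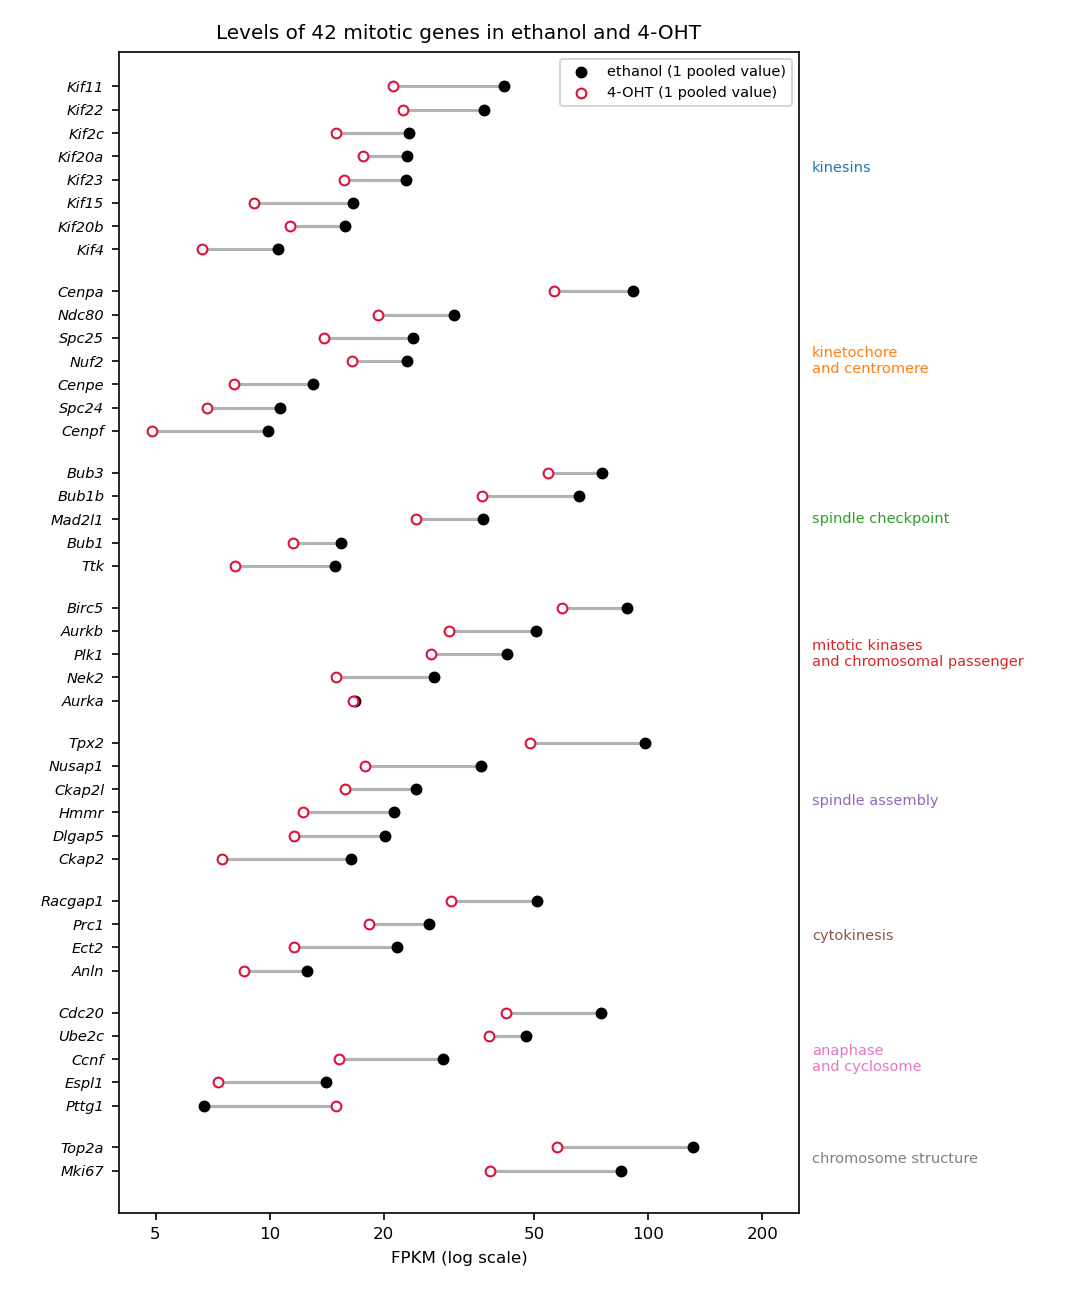
FPKM (log axis) of the 42 genes in ethanol (black points) and 4-OHT (open red points), 1 pooled value each without error, grouped by function and ordered by the ethanol level. The red point lies left of the black one for 41 genes, nearly on it for Aurka, and right of it for Pttg1, at 6.70 FPKM in ethanol and 15.001 in 4-OHT.

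The 8 kinesins were all lower, with a median ratio of -0.60, and 5 of them were at least 1.5-fold lower. Kif11, the motor that pushes spindle poles apart, stood at 41.6 FPKM in ethanol and 21.1 in 4-OHT, a ratio of -0.94 and the lowest of the motors. Kif15, which can share the work of KIF11, was at 16.6 and 9.08 FPKM (-0.81). These motors of the bipolar spindle thus had the lowest ratios of the kinesins. Kif22, a chromokinesin that pushes chromosome arms outwards, was at 36.9 and 22.5 FPKM (-0.69). Kif4, the other chromokinesin, which limits the length of the central spindle, was at 10.5 and 6.64 FPKM (-0.59). Kif4 and Kif22 each have a pseudogene in RefSeq, with which their reads may have been shared. Kif2c, a depolymerase that corrects wrong attachments, was at 23.3 and 14.9 FPKM (-0.61).

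Among the 8 kinesins of the 42, Kif23, Kif20b and Kif20a had the ratios nearest 0. These act at the central spindle or midbody, but Kif4, also of the central spindle, was at -0.59. Kif23, the motor of the centralspindlin complex, stood at 23.0 FPKM in ethanol and 15.7 in 4-OHT (-0.52). Kif20b, a midbody motor, was at 15.8 and 11.3 FPKM (-0.45). Kif20a, which carries the passenger complex to the midzone, was at 23.1 and 17.7 FPKM (-0.37). The locus of the Kif20a row also covers Brd8 and Cdc23, so its reads may not be its alone.

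All 7 kinetochore and centromere genes were lower, with a median ratio of -0.64. Cenpa, the histone H3 variant that marks centromeres, was the most abundant, at 91.1 FPKM in ethanol and 56.5 in 4-OHT (-0.68). Cenpf, a large protein of the outer kinetochore, had the lowest ratio of the group, at 9.92 and 4.89 FPKM (-0.89). Cenpe, the kinetochore kinesin that brings chromosomes to the spindle equator, was at 13.0 and 8.07 FPKM (-0.63).

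The 4 subunits of the Ndc80 complex, which binds microtubules, had ratios from -0.74 to -0.46. Ndc80 stood at 30.7 FPKM in ethanol and 19.3 in 4-OHT (-0.64), and its partner Nuf2 was at 23.0 and 16.5 FPKM (-0.46). Spc25, at the end that faces the chromosome, was at 23.9 and 13.9 FPKM (-0.74), and its partner Spc24 was at 10.7 and 6.86 FPKM (-0.57). Spc24 was the least abundant subunit in both conditions. The level of Ndc80 was 1.34 times that of Nuf2 in ethanol and 1.17 times in 4-OHT, and that of Spc25 was 2.24 and 2.03 times that of Spc24. Ndc80 stood at 2.88 times the level of Spc24 in ethanol and 2.82 times in 4-OHT.

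The 5 spindle checkpoint genes were lower, with a median ratio of -0.57. Bub1b, which encodes the BUBR1 inhibitor of APC/C, stood at 65.6 FPKM in ethanol and 36.3 in 4-OHT (-0.84), and the checkpoint kinase gene Ttk was at 14.9 and 8.10 FPKM (-0.81). These had the lowest ratios of the group. Mad2l1, whose protein captures CDC20, was at 36.7 and 24.4 FPKM (-0.57). Bub3, which docks BUB1 and BUBR1 at kinetochores, was the most abundant, at 75.4 and 54.3 FPKM (-0.47). Bub1, the docking kinase, was at 15.4 and 11.6 FPKM (-0.39). The level of Bub1b was 0.870 of that of Bub3 in ethanol and 0.668 in 4-OHT, whereas against Cdc20, which BUBR1 inhibits, it was 0.875 and 0.863.

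Of the mitotic kinases and their partners, 4 of 5 had ratios from -0.82 to -0.56. Plk1, a kinase that acts from mitotic entry to cytokinesis, stood at 42.2 FPKM in ethanol and 26.7 in 4-OHT (-0.65). Nek2, which splits centrosomes, was at 27.2 and 14.998 FPKM (-0.82). Aurkb, the kinase of the chromosomal passenger complex, was at 50.5 and 29.7 FPKM (-0.75). Birc5, which encodes survivin, a passenger subunit, was at 87.7 and 59.1 FPKM (-0.56). The passenger subunits Incenp (48.7 and 31.7 FPKM) and Cdca8 (62.5 and 41.8), which are not among the 42, had ratios of -0.61 and -0.57, so all 4 subunits lay between -0.75 and -0.56.

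Aurka, the centrosomal kinase, was near equal in both conditions. It stood at 16.8 FPKM in ethanol and 16.7 in 4-OHT, a ratio of -0.01, and 54.2% of all compared rows had a lower one. When the conditions were scaled to each other by the median of their ratios, its ratio was 0.06, above 0. Its activator Tpx2 was at 98.2 and 48.6 FPKM. The level of Tpx2 was therefore 5.84 times that of Aurka in ethanol and 2.92 times in 4-OHT.

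The 6 spindle assembly genes were lower by more than most, with a median ratio of -0.86, and all 6 were at least 1.5-fold lower. Tpx2, which nucleates microtubules near chromosomes and switches on Aurora A, had a ratio of -0.998, just short of 2-fold. Nusap1, which bundles spindle microtubules, was at 36.2 FPKM in ethanol and 17.9 in 4-OHT (-0.98). Its locus overlaps that of Oip5, a centromere gene at 7.70 and 3.97 FPKM. Ckap2, a protein of the spindle poles, had the lowest ratio of the group, at 16.4 and 7.47 FPKM (-1.04).

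The remaining spindle genes were closer to the median of all members. Hmmr, a microtubule-binding protein also known as a hyaluronan receptor, stood at 21.4 and 12.3 FPKM in ethanol and 4-OHT (-0.75). Dlgap5, which stabilizes kinetochore fibres, was at 20.2 and 11.6 FPKM (-0.75). Ckap2l, a relative of Ckap2 at spindle poles, was at 24.4 and 15.8 FPKM (-0.60).

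The 4 cytokinesis genes were lower, with a median ratio of -0.62. Ect2, the exchange factor that starts the cleavage furrow, stood at 21.7 FPKM in ethanol and 11.6 in 4-OHT (-0.85). Racgap1, the centralspindlin subunit that recruits ECT2, was at 50.8 and 30.2 FPKM (-0.73). Anln, the scaffold of the contractile ring, was at 12.6 and 8.55 FPKM (-0.51), and Prc1, which bundles the central spindle, was at 26.3 and 18.2 FPKM (-0.51). The level of Racgap1 was 2.21 times that of its partner Kif23 in ethanol and 1.92 times in 4-OHT.

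The genes of anaphase and APC/C held the one gene on the other side. Cdc20, the mitotic activator of APC/C, stood at 75.02 FPKM in ethanol and 42.02 in 4-OHT (-0.82). Its locus overlaps that of Elovl1, a fatty acid elongase gene that was higher, at 42.9 and 57.4 FPKM. Ccnf, cyclin F of the SCF ubiquitin ligase, was at 28.7 and 15.2 FPKM (-0.87). Ube2c, the ubiquitin-conjugating enzyme of APC/C, was among the members nearest 0, at 47.6 and 37.9 FPKM (-0.32). Espl1, the protease separase that opens cohesin, was at 14.1 and 7.29 FPKM (-0.86).

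Pttg1, which encodes securin, the inhibitor of separase, stood at 6.70 FPKM in ethanol and 15.001 in 4-OHT. It was 2.08-fold higher (ratio 1.06), the only member of the 42 that was at least 2-fold higher, as 10.4% of all rows were. In ethanol it was the least abundant of the 42, and in 4-OHT 17 members lay below it. The level of Pttg1 was 0.475 of that of Espl1 in ethanol and 2.06 times that of Espl1 in 4-OHT. It lies on mm9 at chr11:43233750-43239750, and its nearest neighbour in the table, Slu7, a splicing factor gene, was at 17.6 and 17.7 FPKM (ratio 0.01).

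The chromosome structure genes had the lowest ratios of the 42. Top2a, the topoisomerase that untangles sister chromatids and the most abundant member in ethanol, stood at 131 FPKM in ethanol and 57.2 in 4-OHT (2.27-fold lower). Mki67, which coats mitotic chromosomes and is the usual marker of proliferation, was at 84.8 and 38.3 FPKM (2.18-fold lower). Top2b, the isoform that resting cells also use, was at 56.7 and 38.1 FPKM, so Top2a exceeded it 2.31 times in ethanol and 1.503 times in 4-OHT.

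**Figure D3:**
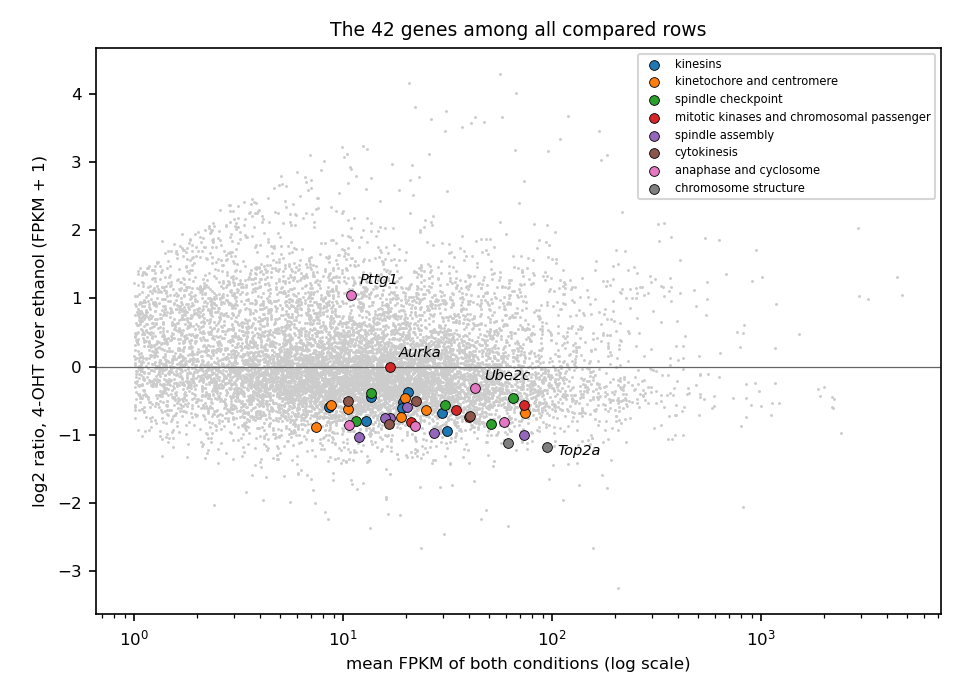
Log2 ratio of 4-OHT over ethanol (y axis) against the mean FPKM of both conditions (x axis, log scale) for the 10856 compared rows (grey) and the 42 mitotic genes (coloured by function). The members form a band below 0 at all levels, with Top2a lowest at -1.18, and Aurka at -0.01 and Pttg1 at 1.06 stand above the band.

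The wider machinery of mitosis was less evenly lower. In lists of other mitotic genes, 172 of 176 were found and 170 compared. Of the 170, 143 (84.1%) were lower, against 55.1% of all compared rows, and 27 were higher, with a median of -0.48. At least 2-fold lower were 9, against 2.58% of all rows, and 0 were at least 2-fold higher, against 10.4%. Cohesin and condensin are the rings that hold and compact chromosomes. In their list, which also holds their regulators and Top2b, 22 of 23 genes were lower (median -0.71). The lowest there were the cohesin regulator Pds5a, at 98.7 and 45.1 FPKM in ethanol and 4-OHT, the condensin subunit Ncapg, at 30.3 and 13.9, and the condensin ATPase Smc4, at 72.4 and 35.5. Rad21, the cohesin subunit that separase cuts, was at 97.9 and 67.7 FPKM (-0.53), and Wapal, which releases cohesin, was higher, at 14.8 and 20.003 (0.41).

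Other kinetochore genes were lower in 25 of 27 (median -0.59). Cenpm, of the inner kinetochore, was at 12.8 and 4.47 FPKM, Cenpv at 31.6 and 12.5, and Casc5, the KNL1 scaffold of the outer kinetochore on which checkpoint proteins sit, at 11.4 and 5.17. Cenpb, which binds centromeric repeats, was the most abundant by the mean of both conditions and was higher, at 43.4 and 54.0 FPKM (0.31). In ethanol alone Pmf1 exceeded it, at 59.7 FPKM, and was lower in 4-OHT (-0.81). In the list of other checkpoint genes, which also holds nuclear pore genes, 11 of 11 were lower but by less (median -0.20). Their ratios ran from -0.74 to -0.02. Mad1l1, the partner that loads MAD2, was at -0.74, and Tpr, a nuclear pore protein with a checkpoint role, was at 49.004 and 43.7 FPKM (-0.16).

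Among other kinases, phosphatases and cyclins, 21 of 24 were lower (median -0.55). Cdk1, the main mitotic kinase, stood at 40.4 and 23.2 FPKM in ethanol and 4-OHT, with Ccnb1 at -0.78, Ccnb2 at -0.81 and Ccna2 at -0.99. Pbk, a mitotic kinase, was at 43.8 and 18.6 FPKM (-1.19), and the phosphatase subunit Ppp1cc was at 198 and 134. Nek6, a kinase of the NIMA family to which Nek2 belongs, was higher, at 8.98 and 18.3 FPKM (0.95), the highest ratio of all 170.

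The APC/C list was mixed: 11 of 16 were lower (68.75%, against 55.1% of all compared rows), with a median of -0.34. Fbxo5, the EMI1 inhibitor of APC/C, was at 35.8 and 14.4 FPKM (-1.25) and the subunit Anapc5 at 250 and 118 (-1.07), whereas the cullin subunit Anapc2 was higher, at 25.9 and 36.4 (0.48). Ube2s, which extends the ubiquitin chains, was at 252 and 152 FPKM (-0.73). The level of Cdc20 was 2.87 times that of Fzr1, the activator used after mitosis, in ethanol and 1.996 times in 4-OHT.

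In the list of other kinesins and dynein adaptors, which also holds motors of cargo transport, 10 of 16 (62.5%) were lower, with a median of -0.14. That share is near the 55.1% of all compared rows. The mitotic Kif14, Kif18a and Kif18b were at -0.59, -0.60 and -0.65. Kifc1 and Kif2a of the same list were lower by less, at -0.38 and -0.19. Nde1, a dynein regulator, stood at 49.6 and 34.1 FPKM. The transport kinesins Kif3a and Kif1b were higher, at 0.52 and 0.85, but Kif5b was at -0.005. In the list of other spindle and cytokinesis genes, 30 of 38 were lower (median -0.41). The tubulin gene Tubb5 was at 416 and 318 FPKM, and Tacc1 and Haus8, which act on spindle microtubules, were higher, at 0.50 and 0.85. The related genes of the list were lower: Haus1, Haus2, Haus4, Haus5 and Haus6 ran from -0.77 to -0.38. Tacc2 was at -0.08 and Tacc3 at -0.50. Of 15 regulators of transcription in G2 and mitosis, 13 were lower (median -0.45), among them the activators Foxm1 (29.4 and 17.4 FPKM) and Mybl2 (8.91 and 6.10 FPKM) and the E2F partner Tfdp1 (166 and 103 FPKM). The 2 that were higher were Rbl2 (0.27) and Lin37 (0.10). The row of Foxm1 also carries another gene name.

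Genes of DNA replication had a median close to that of the mitotic ones. All 46 S phase genes were lower, with a median of -0.70, beside -0.68 for the 42 mitotic genes, and 20 of the 42 lay below the S phase median. Of the 42, 10 lay below the B lineage median of -0.84. A list of 19 housekeeping genes had a median of -0.02, with single genes from -0.64 to 0.73.

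**Figure D4:**
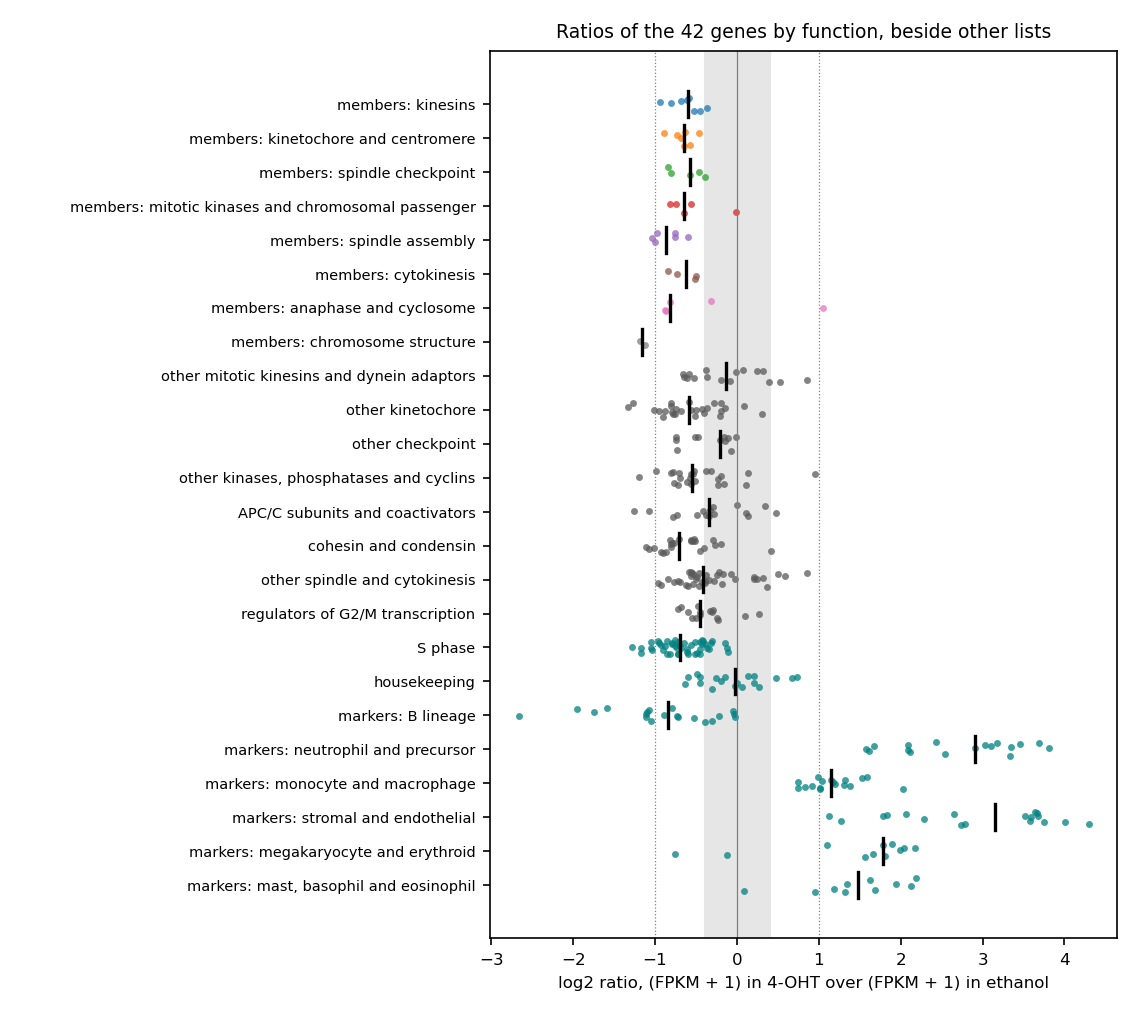
Log2 ratios of 4-OHT over ethanol (x axis) for single genes (points) in the function groups of the 42 mitotic genes (coloured), the lists of other mitotic genes (dark grey), and context and marker lists (teal). Black bars are medians, the grey band runs from the lower to the upper quartile of all compared rows, and dotted lines mark 2-fold. The mitotic groups have medians from -1.15 to -0.57, near S phase (-0.70) and B lineage (-0.84), while the medians of the lists of other cell types lie above 1.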

How the data were processed

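Messenger RNA of 6 libraries was sequenced, 3 for each condition. The authors deposited FPKM values, 1 per gene and condition, in 1 table, and a log2 fold change. Per the submitters' processing notes, CASAVA, TopHat2 2.0.9 and Cufflinks 2.1.1 were used with mm9. How libraries were combined or scaled, and whether strand was used, is not stated in those notes or the labels. The deposited log2 fold change equalled that of the FPKM values, without pseudocount, within 0.01 in all 15756 rows above 0 in both conditions.

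Computed here were the ratio with a pseudocount of 1 and a minimum mean of 1 FPKM, counts, medians and promoter letters (Python 3.11.15, numpy 2.4.6, pandas 2.3.3, scipy 1.17.1, matplotlib 3.10.9). The ratio understates the change of low genes. The counting code was tested on simulated data. Table loci are on mm9, and 1 was added to each start, since lengths matched RefSeq in 6341 rows counted from 0 and in 437 counted from 1. Promoters are RefSeq on GRCm38.p6, 1 window a gene, at the start farthest upstream.

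The members and lists were chosen with earlier results of these data known. Named were all members and, of the other mitotic lists, the 8 highest and 8 lowest ratios (mean FPKM of 5 or more), the most abundant gene of each list, and the 2 most abundant markers per cell type; 1 of the 8 highest is not reported here. Incenp, Cdca8, Smc4, Cdk1, Ccnb1, Ccnb2, Ccna2, Mad1l1, Fzr1, Top2b, Kif14, Kif18a, Kif18b, Foxm1, Mybl2, Slu7, Lyz2 and Ctsd were chosen after their values were seen, as were the rows whose loci overlap a member. Kifc1, Kif2a, Kif5b, Haus1, Haus2, Haus4, Haus5, Haus6, Tacc2, Tacc3, Rbl2 and Lin37 were also chosen after their values were seen. The condition that a printed promoter overlaps no annotated gene was added later. Pseudocounts, minimums, scalings, the deposited fold changes and leaving out merged rows were tried as alternatives.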

Additional observations from a re-analysis of the deposited data

How the results depend on the processing

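Adding less to each FPKM brought more genes past 2-fold. With 0.1 in place of 1, 6 members were at least 2-fold lower instead of 3, as were 457 of all rows instead of 280 and 14 of the other mitotic genes instead of 9, and 2 of the latter were at least 2-fold higher instead of 0. The authors' deposited log2 fold changes, which add nothing, gave 6 members, 482 rows, and 14 lower and 2 higher among the other mitotic genes. A minimum mean of 5 FPKM left 700 rows at least 2-fold higher instead of 1124, since fewer rows were compared. Median-of-ratios scaling moved the median of all rows from -0.07 to 0. It put Aurka at 0.0605 and Ckap2 at -0.97, short of 2-fold, and left 5 of the other mitotic genes at least 2-fold lower and 1 at least 2-fold higher. Over these settings, quantile normalization and leaving out merged rows, 40 or 41 members were lower, the member median lay between -0.70 and -0.61, and Pttg1 between 1.04 and 1.16. No paired analysis was possible because libraries of a condition were combined before deposit, so neither the replicate block nor the fits without each library were run. Without counts, the precision of the values is unknown.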
